A study of Mus musculus with 12 samples.

Results

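Blood vessels of fat are described here through 34 genes of endothelial cells and of the growth factors that act on them, measured by RNA-seq in mouse perigonadal white adipose tissue. They were picked by gene symbol: each Ensembl row of the count files whose GRCm38 symbol is on the list was taken. All 34 symbols were found among the 53379 identifiers, and all 34 passed the filter on low counts. Of the members, 29 mark or act in endothelial cells and 5 are secreted ligands. The libraries fall into 4 groups, named by their sample titles. The ko CL group holds C57BL/6 mice with the adipose tissue specific CDK7 knockout that received CL for 7 days, and the ko saline group holds such knockout mice after 7 days of saline injection. The wt CL and wt saline groups hold control littermates with the same treatments. All mice were 9 weeks old and were killed at zeitgeber time 9. Every group had 3 libraries, each a pool of RNA from 2 mice, 250 ng a mouse. The labels do not name the promoter that drives the deletion, and they give the drug only as CL. Whole tissue was sequenced, so the state of Cdk7 in the endothelial cells themselves was not measured.

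The inner wall of every vessel is a sheet of endothelial cells. Vascular endothelial growth factors (VEGF), made in fat largely by adipocytes and stromal cells, drive their survival and sprouting through the receptors Kdr, Flt1 and Flt4, while angiopoietins act through Tek to settle or loosen the vessel wall. Notch signalling between neighbouring endothelial cells sets which of them lead a sprout. In white fat the capillaries also carry lipoprotein lipase on Gpihbp1, and vessel growth is known to accompany the growth and the browning of the tissue.

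Depth was 21892817 to 27985019 gene counts a library. The genotype field of the labels contradicts the title in 6 of the 12 libraries, so Cdk7 was read first as a check of the titles. Its level was 23.6, 19.5 and 18.1 CPM (TMM-scaled counts relative to library size) in ko CL, 11, 11.7 and 11.5 CPM in ko saline, 32.2, 30.4 and 35.4 CPM in wt CL, and 29.7, 30 and 29.3 CPM in wt saline. Every ko library lay below every wt library. Cdk7 was lower in ko CL than in wt CL by -0.68 ± 0.09 log2 (SE; edgeR quasi-likelihood test, Benjamini-Hochberg adjusted p = 3.64e-05) and in ko saline than in wt saline by -1.38 ± 0.10 log2 (edgeR adjusted p = 6.21e-06). Endothelial genes were detected in the tissue at unlike levels: Pecam1, Cdh5, Kdr and Tek were each at 57.8 CPM or more in every library. Egfl7, Esm1 and Prox1 were at 7.66 CPM or less in every library, with the Egfl7 counts uncertain because of exon bases shared with other genes. Within its group ko CL 1 stood apart: the chi-square of its gene counts, per degree of freedom, was 60.3 against ko CL 2 and 40.8 against ko CL 3, where the other pairs of libraries of 1 group gave 7.44 to 17.6. Without it 28 members were still lower in ko CL than in wt CL, 22 were lower in ko CL than in ko saline, and 21 had a lower CL response in ko. Differences below are log2 fold changes with SE from 1 edgeR fit to 16554 genes in all 12 libraries, called at an adjusted p under 0.05. Because each library pools 2 mice, these p-values are about variation between pools.

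Most of the 34 genes were lower in the fat of CL-treated knockout mice than in that of CL-treated wild-type mice. In ko CL against wt CL, 28 of 34 members were lower and 2 were higher, against 29.3% and 27.6% of all tested genes. The members' median difference was -0.92 log2, against 0.00 over all genes. All 3 ko CL libraries lay below all 3 wt CL libraries for 28 members, an arrangement that 32.7% of all tested genes showed. The largest falls were in Cldn5, a claudin of endothelial tight junctions, at -1.87 ± 0.13 log2 (SE; edgeR adjusted p = 1.02e-07), in Nos3, the endothelial nitric oxide synthase, at -1.81 ± 0.11 log2 (SE; edgeR adjusted p = 2.88e-08), and in Gpihbp1 at -1.56 ± 0.09 log2 (SE; edgeR adjusted p = 2.17e-08). The higher members were Angpt2 and Vwf, and Esm1, Plvap, Prox1 and Vegfc did not pass the test. In bulk tissue, fewer endothelial cells and less RNA of these genes per cell cannot be told apart.

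CL lowered most of the genes in ko and had a mixed effect in wt. In ko CL against ko saline, 27 of 34 members were lower and 1, Angpt2, was higher, where 27.5% of all tested genes were lower and 27.2% higher. The members' median was -0.60 log2, against -0.01 over all genes. In wt CL against wt saline, 9 members were higher and 5 lower, against 19.6% and 17.1% of all tested genes, with a median of 0.09 log2 for the members and -0.01 for all genes. Cdh5, Esam, Gpihbp1, Kdr, Nos3 and Pecam1 were lower with CL in ko and higher with CL in wt. With library sizes alone the rise in wt remained a call for Nos3 and was lost for Cdh5 at 0.31, Gpihbp1 at 0.14, Kdr at 0.14 and Pecam1 at 0.08 log2, and Esam turned to -0.06 log2. Esm1, Prox1, Vegfb and Vegfc were lower with CL in both genotypes, and 17 members were lower with CL in ko without a call in wt. How many of all tested genes showed each of these joint patterns of calls in ko and wt was not counted. The difference of the CL responses, ko minus wt, was negative and past the threshold for 24 members and positive for 2, against 23.6% and 21.8% of all tested genes, with a median of -0.69 log2 for the members and -0.03 for all genes.

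Without the drug the genotypes lay closer together. In ko saline against wt saline, 7 members were lower, against 6.45% of all tested genes, and their median was -0.19 log2. They were Cldn5, Dll4, Egfl7, Esam, Nos3, Vegfa and Vegfb, each of which was also lower in ko CL than in wt CL. How many of all tested genes were lower in both comparisons was not counted. No member was higher by edgeR or DESeq2, also at an unadjusted p under 0.05, while 7.99% of all tested genes were higher. Without wt saline 1, Prox1 was higher, at 0.98 log2 (edgeR adjusted p = 0.0233). This count of 7 rested on single libraries: leaving out wt saline 1, wt saline 2, wt saline 3, ko saline 1 or ko saline 2 left 1 or 2 calls, and leaving out a library could also raise it to 10. Vegfa was called under each of these.

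Scaling bears on the counts in wt. With library sizes alone the median of all genes moved to -0.33 log2 in wt CL against wt saline. Then 2 members were higher and 16 lower, and of the 16554 tested genes 1329 were higher and 8048 lower. Relative to the median of all genes, 18 of 34 members lay above and 16 below. Scaling moves all genes of a comparison by about the same amount, so this split could not differ between scalings. The median of all genes in ko CL against wt CL moved to 0.39 log2 with library sizes alone. Then 23 members were lower and 4 higher, and of the 16554 tested genes 2237 were lower and 8667 higher. The calls lost there were those of Emcn at -0.19, Flt4 at -0.16, Sox17 at -0.29 and Tek at -0.09 log2, with Eng turned to 0.06 log2 (edgeR adjusted p = 0.102, 0.395, 0.126, 0.474 and 0.619). In the difference of the CL responses the median of all genes moved to 0.20 log2, with 15 members lower and 3 higher. There 2267 of the 16554 tested genes were lower and 5386 higher. In ko saline against wt saline that median moved to 0.15 log2, with 1 member lower, where 506 of the tested genes were lower.

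**Figure D1:**
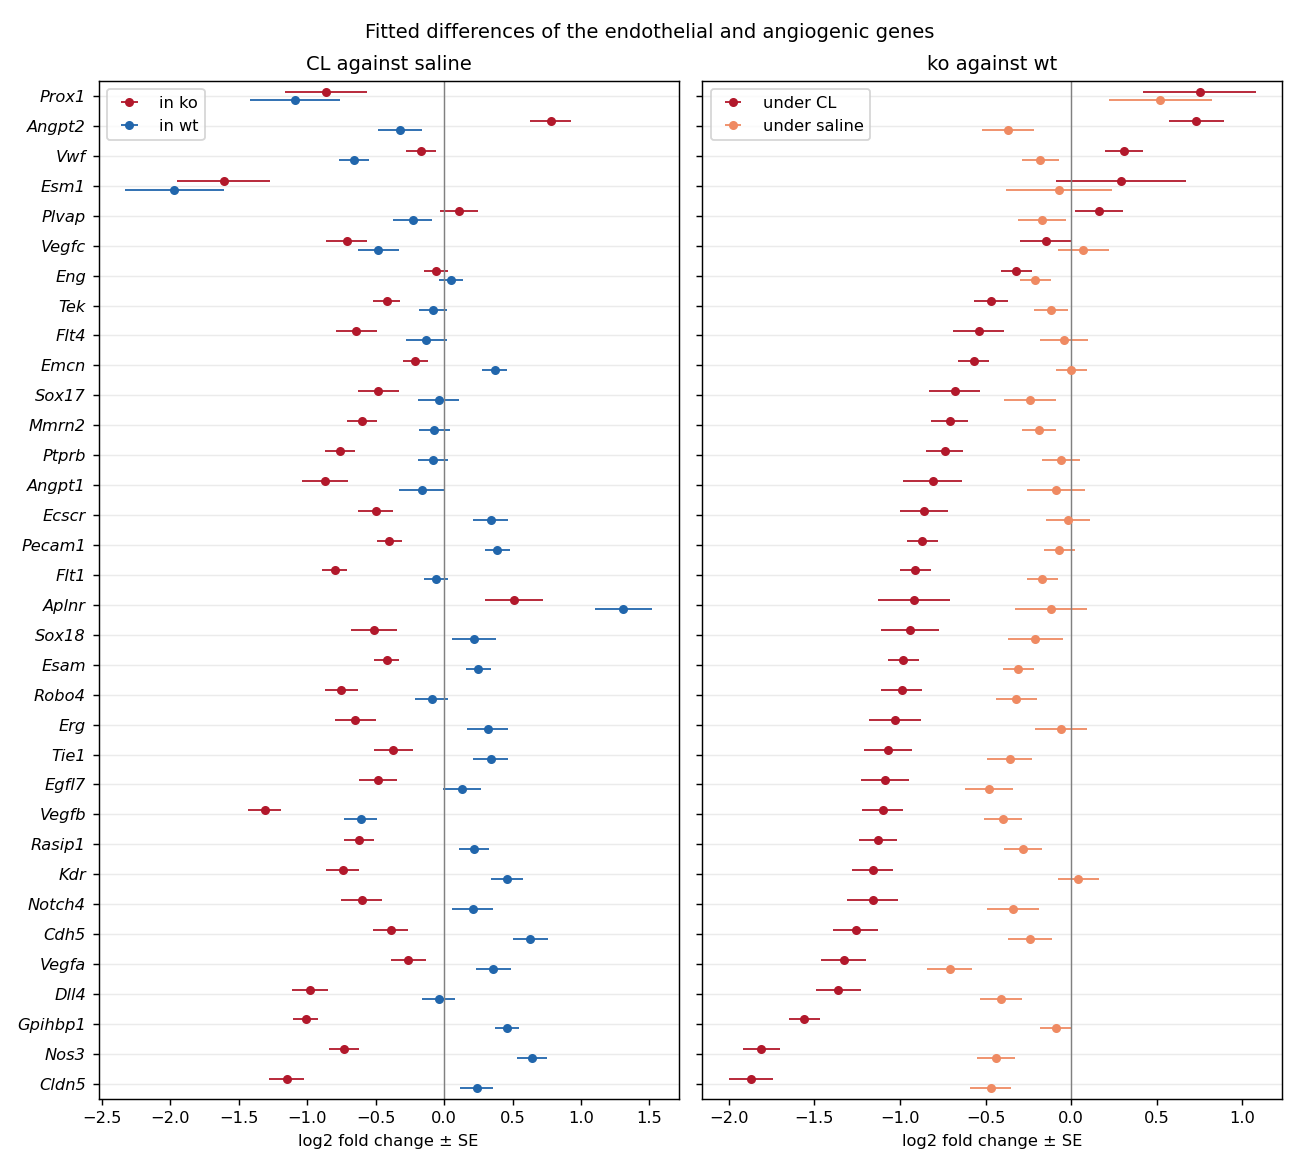
Log2 fold changes ± SE of the 34 genes from the 12-library edgeR fit, ordered by ko CL against wt CL. The left panel sets CL against saline in ko (red) and in wt (blue); the right panel sets ko against wt under CL (red) and under saline (orange). In the right panel 29 genes have a negative difference under CL, and Cldn5, Nos3 and Gpihbp1 lie farthest left. Of these genes 28 were called lower, which the panel does not mark.

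Markers of other cell types of the tissue also differed between the same libraries. All 9 of 9 macrophage markers were higher in ko CL than in ko saline and than in wt CL, and their summed level was 8788 to 12101 CPM in ko CL, 1471 to 1534 in ko saline, 816 to 963 in wt CL and 1503 to 1599 in wt saline. All 8 of 8 adipocyte markers were lower in ko CL than in wt CL, with sums of 7111 to 10815 CPM in ko CL, 14729 to 15684 in ko saline, 25558 to 27586 in wt CL and 21157 to 23273 in wt saline. All 8 of 8 fibroblast and progenitor markers were higher in ko CL than in wt CL, with sums of 5753 to 7122 CPM in ko CL, 3359 to 4286 in ko saline, 2382 to 2873 in wt CL and 3734 to 3899 in wt saline. Of all tested genes, 27.2% were higher in ko CL than in ko saline. In ko CL against wt CL, 27.6% of all tested genes were higher and 29.3% lower. No listed marker of these 3 types was at 0 in any library. Their part in the endothelial result was not tested, and for them too cell number and RNA per cell cannot be told apart.

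Promoter sequence is shown for 4 members. Vegfa is the main VEGF, and Esm1 was lower with CL in both genotypes. Cldn5 and Dll4 had the smallest adjusted p in ko CL against wt CL of the endothelial members with a RefSeq window. Each sequence is the 250 bases before the RefSeq start of the gene in GRCm38.p6, written 5′ to 3′ on the gene's strand. GGAA and its complement TTCC, the core bound by Ets factors such as Erg, are in capitals.
Vegfa, chr17:46032378-46032627, minus strand: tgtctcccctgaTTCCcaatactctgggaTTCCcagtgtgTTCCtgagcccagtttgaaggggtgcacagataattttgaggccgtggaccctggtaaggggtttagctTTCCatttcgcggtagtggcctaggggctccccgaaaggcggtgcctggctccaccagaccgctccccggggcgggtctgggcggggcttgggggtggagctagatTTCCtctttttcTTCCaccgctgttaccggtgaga
Cldn5, chr16:18776597-18776846, plus strand: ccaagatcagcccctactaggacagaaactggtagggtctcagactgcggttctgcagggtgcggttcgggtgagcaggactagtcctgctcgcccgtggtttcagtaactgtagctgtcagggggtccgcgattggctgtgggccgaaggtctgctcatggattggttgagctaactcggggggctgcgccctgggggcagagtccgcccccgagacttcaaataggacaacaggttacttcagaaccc
Dll4, chr2:119325534-119325783, plus strand: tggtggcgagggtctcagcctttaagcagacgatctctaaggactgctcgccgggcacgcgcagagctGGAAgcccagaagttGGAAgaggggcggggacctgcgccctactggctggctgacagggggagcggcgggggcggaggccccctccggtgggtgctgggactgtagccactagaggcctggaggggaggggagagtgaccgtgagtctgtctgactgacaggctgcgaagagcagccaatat
Esm1, chr13:113209409-113209658, plus strand: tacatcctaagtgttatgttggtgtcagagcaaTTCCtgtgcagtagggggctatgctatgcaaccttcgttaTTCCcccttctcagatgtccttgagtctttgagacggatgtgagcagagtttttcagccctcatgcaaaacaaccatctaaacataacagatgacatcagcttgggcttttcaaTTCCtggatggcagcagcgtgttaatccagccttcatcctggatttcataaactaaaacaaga
These stretches hold 6 GGAA matches in Vegfa, 2 in Dll4 and 3 in Esm1, and Cldn5 holds none of these letters in its window.

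RefSeq windows of 300 bases, 250 before and 50 after a start, were used for 19 of the 34 members, 25 windows in all. Windows on chromosome 18 were left out. The motif GGAA, on either strand, was in 96% of the members' windows and in 96% of all 32851 windows used. The longer CCGGAA, which contains GGAA, was in 4% against 14.9%, and ACGTG, the core of the hypoxia response element, in 4% against 19.6%. ACAAAG, the core bound by SOX factors, was in 16% against 18.7%, and the E-box CANNTG in 68% against 72.3%. The single member window with ACGTG was the other Vegfa window, at chr17:46025114-46025413, and the single one with CCGGAA belonged to Kdr. A match is a description of the letters only.

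The VEGF ligands were lower in ko CL than in wt CL, apart from Vegfc. Vegfa was at 97.3, 150 and 150 CPM in ko CL, 150, 158 and 166 CPM in ko saline, 362, 325 and 310 CPM in wt CL and 257, 264 and 258 CPM in wt saline. Vegfa thus separated the genotypes with no overlap under either treatment, and ko CL 1 was its lowest library. The difference was -1.33 ± 0.13 log2 (SE; edgeR adjusted p = 2.32e-06) in ko CL against wt CL and -0.71 ± 0.13 log2 (SE; edgeR adjusted p = 0.00456) in ko saline against wt saline. CL gave -0.26 ± 0.13 log2 (SE; edgeR adjusted p = 0.115) in ko, which did not pass, and 0.36 ± 0.13 log2 (SE; edgeR adjusted p = 0.0477) in wt. The wt call was lost with RLE scaling (adjusted p = 0.0621 in edgeR), with upper-quartile scaling (edgeR adjusted p = 0.107), with the replicate block (edgeR adjusted p = 0.0565), with library sizes alone and on leaving out any 1 of 11 of the 12 libraries. The CL responses differed by -0.61 ± 0.19 log2 (SE; edgeR adjusted p = 0.016), a call lost with library sizes alone (edgeR adjusted p = 0.11).

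Vegfb, which binds Flt1 and not Kdr, went down with CL in both genotypes. Vegfb had 19.4, 19.7 and 21.5 CPM in ko CL, against 42.1, 50.9 and 56.4 CPM in ko saline, 50.2, 42.3 and 36.8 CPM in wt CL and 68.1, 67.3 and 61.6 CPM in wt saline. Every CL library lay below every saline library of its genotype, and the ko CL libraries were the lowest of all. The CL difference was -1.31 ± 0.12 log2 (SE; edgeR adjusted p = 1.34e-06) in ko and -0.61 ± 0.12 log2 (SE; edgeR adjusted p = 0.00128) in wt, and the genotypes differed by -1.10 ± 0.12 log2 (SE; edgeR adjusted p = 5.53e-06) under CL. Under saline the genotype difference was -0.40 ± 0.11 log2 (SE; edgeR adjusted p = 0.0342), one of the calls that single libraries decided. It was also lost with the replicate block (edgeR adjusted p = 0.0606), with upper-quartile scaling (edgeR adjusted p = 0.0502) and with library sizes alone. The fall with CL was larger in ko than in wt, by -0.70 ± 0.17 log2 (SE; edgeR adjusted p = 0.00403).

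Vegfc, the ligand of Flt4 and of lymphatic growth, was lower with CL in both genotypes. Vegfc measured 5.34, 7.18 and 5.95 CPM in ko CL, 9.28, 10.4 and 10.6 CPM in ko saline, 7.16, 5.54 and 7.84 CPM in wt CL and 10.7, 8.41 and 9.64 CPM in wt saline. The CL libraries lay below the saline libraries in each genotype, and ko CL overlapped wt CL. The CL difference was -0.71 ± 0.15 log2 (SE; edgeR adjusted p = 0.00135) in ko and -0.48 ± 0.15 log2 (SE; edgeR adjusted p = 0.0241) in wt. The wt call was lost without wt saline 1, wt saline 3 or wt CL 2 (edgeR adjusted p = 0.0792, 0.0582 and 0.106). Between ko CL and wt CL it was -0.15 ± 0.15 log2 (SE; edgeR adjusted p = 0.417).

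The 2 angiopoietins moved apart in ko CL. Angpt1 is the stabilising agonist of Tek and comes largely from perivascular cells. Angpt1 stood at 14.3, 22.6 and 17.2 CPM in ko CL, with 35.1, 25.2 and 39 CPM in ko saline, 29.5, 29.1 and 36.3 CPM in wt CL and 35.7, 33.8 and 36.4 CPM in wt saline. Each ko CL library lay below all libraries of the other groups. Its difference was -0.87 ± 0.17 log2 (SE; edgeR adjusted p = 0.000849) in ko CL against ko saline and -0.81 ± 0.17 log2 (SE; edgeR adjusted p = 0.00143) in ko CL against wt CL, whereas wt CL against wt saline gave -0.16 ± 0.17 log2 (SE; edgeR adjusted p = 0.498).

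Angpt2 is stored in endothelial cells and can counter Angpt1 at Tek. Angpt2 was at 25.4, 16.3 and 17.2 CPM in ko CL, 10.7, 13.2 and 10.4 CPM in ko saline, 10.8, 12.3 and 12.3 CPM in wt CL and 14.2, 15.1 and 15.1 CPM in wt saline. Here ko CL lay above all other groups without overlap, with ko CL 1 the highest. The difference was 0.78 ± 0.15 log2 (SE; edgeR adjusted p = 0.000822) in ko CL against ko saline and 0.73 ± 0.16 log2 (SE; edgeR adjusted p = 0.00127) in ko CL against wt CL. Without ko CL 1 it fell to 0.52 log2 against ko saline and 0.50 log2 against wt CL, still past the threshold. The CL responses of the genotypes differed by 1.10 ± 0.22 log2 (SE; edgeR adjusted p = 0.00122).

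The ratio of Angpt2 to Angpt1 CPM averaged 1.16 ± 0.54 in ko CL, 0.366 ± 0.14 in ko saline, 0.377 ± 0.044 in wt CL and 0.42 ± 0.026 in wt saline (SD, n = 3 each). It lay between 0.718 and 1.77 in ko CL and did not exceed 0.525 in any other library. The ratio is given without a test.

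**Figure D2:**
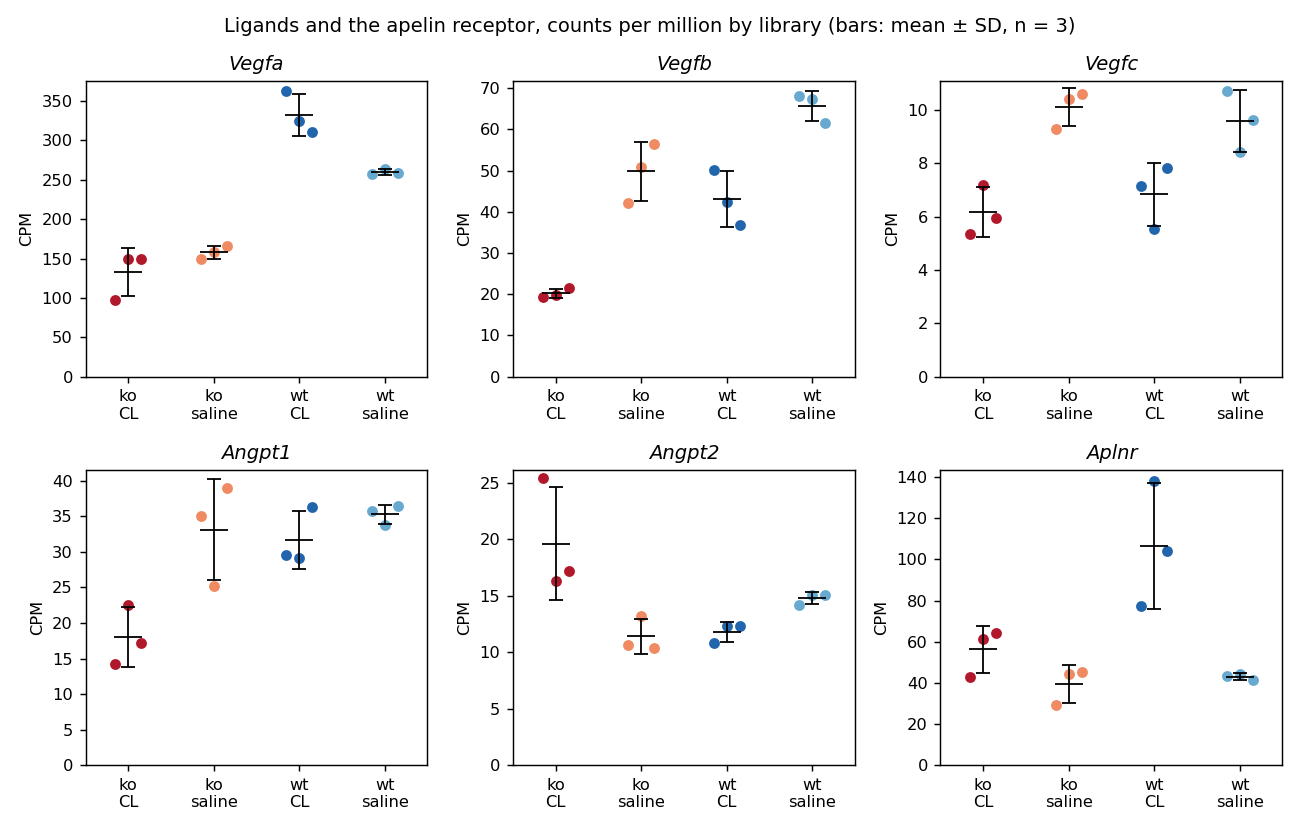
CPM of the 5 ligands and of the apelin receptor Aplnr in each library; points are libraries, bars the mean ± SD of 3. The ko groups lie below the wt groups for Vegfa, the CL groups below the saline groups of their genotype for Vegfb and Vegfc, and ko CL stands above the other groups for Angpt2.

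All 3 VEGF receptors were lower in ko CL than in ko saline and than in wt CL. Kdr is the main signalling receptor of VEGF-A. Kdr had 124, 161 and 174 CPM in ko CL, against 284, 244 and 238 CPM in ko saline, 298, 368 and 359 CPM in wt CL and 258, 247 and 241 CPM in wt saline. The ko CL libraries were the lowest, the wt CL libraries the highest, and the saline groups overlapped. Kdr fell by CL in ko, at -0.74 ± 0.12 log2 (SE; edgeR adjusted p = 0.000214), and rose by CL in wt, at 0.46 ± 0.12 log2 (SE; edgeR adjusted p = 0.00946). The CL responses differed by -1.20 ± 0.17 log2 (SE; edgeR adjusted p = 0.000106).

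Flt1 binds VEGF-A tightly and acts in part as a decoy. Flt1 measured 59.1, 68.1 and 78.2 CPM in ko CL, 120, 127 and 112 CPM in ko saline, 124, 130 and 132 CPM in wt CL and 142, 132 and 129 CPM in wt saline. Its values in ko CL were below all others, and wt CL overlapped wt saline. Flt1 differed by -0.80 ± 0.09 log2 (SE; edgeR adjusted p = 8.56e-06) in ko CL against ko saline and by -0.91 ± 0.09 log2 (SE; edgeR adjusted p = 2.06e-06) in ko CL against wt CL. In wt, CL gave -0.06 ± 0.09 log2 (SE; edgeR adjusted p = 0.629). Flt1 made up 44.9 ± 2.7% of Kdr CPM in ko CL, 46.9 ± 4.9% in ko saline, 38.0 ± 3.3% in wt CL and 54.1 ± 1.0% in wt saline (SD, n = 3 each).

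Flt4, the VEGF-C receptor, marks lymphatic and some blood endothelium. Flt4 stood at 11.7, 14.1 and 14.1 CPM in ko CL, with 17.5, 24.5 and 20 CPM in ko saline, 20.5, 19.9 and 17.8 CPM in wt CL and 25.3, 20.9 and 17.4 CPM in wt saline. Every ko CL library was below every other library, while the other 3 groups overlapped. The difference was -0.64 ± 0.15 log2 (SE; edgeR adjusted p = 0.0027) in ko CL against ko saline and -0.54 ± 0.15 log2 (SE; edgeR adjusted p = 0.00744) in ko CL against wt CL, with -0.51 ± 0.21 log2 (SE; edgeR adjusted p = 0.0638) for the difference of the CL responses, which did not pass.

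The Tie receptors and their phosphatase followed the same order in ko CL. Tek is the angiopoietin receptor. Tek was at 57.8, 58.7 and 61.3 CPM in ko CL, 79.3, 85.1 and 73.6 CPM in ko saline, 68.5, 83.2 and 94.4 CPM in wt CL and 88.6, 81 and 89.8 CPM in wt saline. Its ko CL values lay close together and below the rest. Tek was lower by -0.42 ± 0.10 log2 (SE; edgeR adjusted p = 0.00285) in ko CL against ko saline and by -0.47 ± 0.10 log2 (SE; edgeR adjusted p = 0.00121) in ko CL against wt CL.

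Tie1, the partner of Tek, showed a wider range. Tie1 had 39.4, 52 and 52.2 CPM in ko CL, against 52.4, 67.2 and 65.8 CPM in ko saline, 90.4, 121 and 89.7 CPM in wt CL and 80.8, 82.6 and 74.6 CPM in wt saline. All ko CL libraries lay below all wt libraries, and ko CL 3, at the top of its group, was just under ko saline 1. The difference was -1.07 ± 0.14 log2 (SE; edgeR adjusted p = 2.17e-05) in ko CL against wt CL and -0.37 ± 0.14 log2 (SE; edgeR adjusted p = 0.0347) in ko CL against ko saline, a call that was lost without ko saline 2, ko saline 3 or ko CL 1 (edgeR adjusted p = 0.0944, 0.0831 and 0.105).

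Ptprb, the endothelial phosphatase that acts on Tek and on Cdh5, was lower in ko CL as well. Ptprb measured 150, 176 and 191 CPM in ko CL, 316, 306 and 250 CPM in ko saline, 265, 302 and 293 CPM in wt CL and 329, 301 and 278 CPM in wt saline. No ko CL library overlapped another group, and all were lower. Ptprb was lower by -0.76 ± 0.11 log2 (SE; edgeR adjusted p = 7.88e-05) in ko CL against ko saline and by -0.74 ± 0.11 log2 (SE; edgeR adjusted p = 7.61e-05) in ko CL against wt CL. Expressed per Tek transcript count, Angpt2 stood at 33.2 ± 9.2% of Tek CPM in ko CL, 14.4 ± 1.0% in ko saline, 14.5 ± 1.4% in wt CL and 17.2 ± 1.4% in wt saline (SD, n = 3 each).

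The apelin receptor Aplnr, which is raised in sprouting endothelium, rose with CL in wt. Its level was 43 to 64.4 CPM in ko CL, 29.1 to 45.2 CPM in ko saline, 77.1 to 138 CPM in wt CL and 41.4 to 44.4 CPM in wt saline. The wt CL libraries lay above all others. The difference was 1.31 ± 0.21 log2 (SE; edgeR adjusted p = 0.000419) in wt CL against wt saline, 0.51 ± 0.21 log2 (SE; edgeR adjusted p = 0.0577) in ko CL against ko saline and -0.92 ± 0.21 log2 (SE; edgeR adjusted p = 0.0021) in ko CL against wt CL. The ko response passed in DESeq2 (adjusted p = 0.0407) and without ko CL 1 (edgeR adjusted p = 0.0233). Its ligand gene Apln was 10.3, 18.6 and 22.3 CPM in ko CL, 12.2, 14 and 12.5 CPM in ko saline, 30, 37.5 and 36.9 CPM in wt CL and 16.5, 15.3 and 9.47 CPM in wt saline, with a difference of 1.34 ± 0.24 log2 in wt CL against wt saline (SE; edgeR adjusted p = 0.000903) and 0.40 ± 0.24 log2 in ko CL against ko saline (SE; edgeR adjusted p = 0.183).

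Among junction and surface genes, Pecam1 and Cdh5 are the common markers of all endothelium. Pecam1 stood at 168, 199 and 195 CPM in ko CL, with 239, 268 and 238 CPM in ko saline, 304, 375 and 348 CPM in wt CL and 264, 250 and 268 CPM in wt saline. Cdh5 was at 129, 174 and 189 CPM in ko CL, 220, 214 and 212 CPM in ko saline, 329, 455 and 392 CPM in wt CL and 268, 246 and 247 CPM in wt saline. For both genes the ko CL libraries were the lowest and the wt CL libraries the highest, without overlap with the group of the same genotype under saline. Pecam1, the adhesion molecule CD31, differed by -0.40 ± 0.09 log2 (SE; edgeR adjusted p = 0.00214) in ko CL against ko saline and by 0.39 ± 0.09 log2 (SE; edgeR adjusted p = 0.00426) in wt CL against wt saline. Cdh5, or VE-cadherin, differed by -0.39 ± 0.13 log2 (SE; edgeR adjusted p = 0.0226) and 0.63 ± 0.13 log2 (SE; edgeR adjusted p = 0.00251) in the same comparisons. The Cdh5 call in ko was lost without ko CL 1 (edgeR adjusted p = 0.0525).

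Cldn5 showed the largest fall of any member in ko CL against wt CL. Cldn5 had 14.9, 18.4 and 19.4 CPM in ko CL, against 33.2, 41.6 and 41.9 CPM in ko saline, 63.8, 68.9 and 59 CPM in wt CL and 45.2, 58.7 and 58.3 CPM in wt saline. Its ko CL values were the lowest, without overlap, and each ko group lay below the wt group of the same treatment. Cldn5 was lower by -1.15 ± 0.13 log2 (SE; edgeR adjusted p = 9.1e-06) in ko CL against ko saline, and the genotypes under saline differed by -0.47 ± 0.12 log2 (SE; edgeR adjusted p = 0.024), a call lost without wt saline 2, wt saline 3, ko saline 1 or ko saline 2. Set against Pecam1, Cldn5 made up 9.34 ± 0.55% in ko CL, 15.7 ± 1.9% in ko saline, 18.8 ± 2.0% in wt CL and 20.8 ± 3.3% in wt saline (SD, n = 3 each).

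Esam, an adhesion molecule of endothelial junctions, and Robo4, a guidance receptor of quiescent vessels, were both lowest in ko CL. Esam measured 57.6, 67.9 and 66.5 CPM in ko CL, 81, 86.6 and 89.5 CPM in ko saline, 109, 135 and 134 CPM in wt CL and 104, 105 and 109 CPM in wt saline. Robo4 stood at 30.7, 40.8 and 40.8 CPM in ko CL, with 65.5, 64.9 and 58.8 CPM in ko saline, 63.1, 84.2 and 75.6 CPM in wt CL and 73.1, 87.5 and 76 CPM in wt saline. In ko CL both genes were below every library of the other groups. Esam was lower by -0.98 ± 0.09 log2 (SE; edgeR adjusted p = 9.72e-07) and Robo4 by -0.99 ± 0.12 log2 (SE; edgeR adjusted p = 1.76e-05) in ko CL against wt CL. In wt CL against wt saline Esam gave 0.25 ± 0.09 log2 (SE; edgeR adjusted p = 0.0397), a call lost with RLE scaling (edgeR adjusted p = 0.0573) and under several other settings, and Robo4 gave -0.09 ± 0.12 log2 (SE; edgeR adjusted p = 0.617).

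Ecscr, a small endothelial surface protein, and Mmrn2, a matrix glycoprotein of the vessel wall, were lower in ko CL. Ecscr was at 11.1, 13.9 and 14.3 CPM in ko CL, 16.1, 21.2 and 18.3 CPM in ko saline, 21, 26.7 and 23.6 CPM in wt CL and 20.8, 19.1 and 16.5 CPM in wt saline. Mmrn2 had 38.1, 43.7 and 43.9 CPM in ko CL, against 60.4, 73.4 and 56.3 CPM in ko saline, 63.2, 78.7 and 64.1 CPM in wt CL and 73.2, 73.5 and 70.1 CPM in wt saline. For both, ko CL lay below all other groups. Ecscr differed by -0.86 ± 0.14 log2 (SE; edgeR adjusted p = 0.000117) and Mmrn2 by -0.71 ± 0.11 log2 (SE; edgeR adjusted p = 8.27e-05) in ko CL against wt CL.

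The remaining surface genes moved less. Emcn, a sialomucin of capillaries and veins, was 30.6 to 37.3 CPM in ko CL, 34.5 to 43 CPM in ko saline, 49.1 to 54.2 CPM in wt CL and 38.4 to 41.6 CPM in wt saline, with 0.37 ± 0.09 log2 (SE; edgeR adjusted p = 0.00747) in wt CL against wt saline and -0.57 ± 0.09 log2 (SE; edgeR adjusted p = 0.000167) in ko CL against wt CL. With library sizes alone the Emcn rise in wt was 0.06 log2 and no longer a call (edgeR adjusted p = 0.631). Eng, a co-receptor of the TGF-beta family, was 91.4 to 102 CPM in ko CL, 96.6 to 109 CPM in ko saline, 105 to 136 CPM in wt CL and 109 to 122 CPM in wt saline. Eng passed in ko CL against wt CL only, at -0.32 ± 0.09 log2 (SE; edgeR adjusted p = 0.00855), and that difference turned to 0.06 log2 with library sizes alone. Plvap, which forms the diaphragms of fenestrae and caveolae, was 30.7 to 36.4 CPM in ko CL, 25.1 to 36.4 CPM in ko saline, 25.5 to 33.9 CPM in wt CL and 29.9 to 39.6 CPM in wt saline and passed in no comparison.

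In the Notch pair the ligand and the receptor both had their lowest levels in ko CL. Dll4 is the ligand of sprouting and arterial cells. Dll4 measured 11.3, 14 and 16.6 CPM in ko CL, 24.5, 27.2 and 30.4 CPM in ko saline, 33, 39.6 and 34.3 CPM in wt CL and 39.2, 34.2 and 36.2 CPM in wt saline. Again ko CL lay below all others, and wt CL overlapped wt saline. Dll4 was lower by -0.98 ± 0.13 log2 (SE; edgeR adjusted p = 2.98e-05) in ko CL against ko saline and by -1.36 ± 0.13 log2 (SE; edgeR adjusted p = 1.33e-06) in ko CL against wt CL. Notch4 is a receptor found mainly in endothelium. Notch4 stood at 12.5, 19 and 19.3 CPM in ko CL, with 22.5, 27.9 and 26.4 CPM in ko saline, 37.6, 40.5 and 35.1 CPM in wt CL and 36.7, 32.2 and 28.7 CPM in wt saline. Its ko CL libraries were likewise below all others, with -1.16 ± 0.15 log2 (SE; edgeR adjusted p = 2.32e-05) in ko CL against wt CL.

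Of the 4 transcription factors among the members, Erg, Sox17 and Sox18 were lower in ko CL than in wt CL, and Prox1 did not pass. Erg, an Ets factor that maintains endothelial identity, was lowest in ko CL. Erg was at 19, 26.4 and 27.4 CPM in ko CL, 34.4, 42.8 and 36.6 CPM in ko saline, 39.7, 58.6 and 50.5 CPM in wt CL and 39.5, 39.5 and 40.1 CPM in wt saline. Its ko CL libraries lay below all others, while ko saline overlapped wt saline. Erg differed by -0.65 ± 0.15 log2 (SE; edgeR adjusted p = 0.00251) in ko CL against ko saline and by -1.03 ± 0.15 log2 (SE; edgeR adjusted p = 5.82e-05) in ko CL against wt CL. Sox17, an arterial factor, was 7.38 to 10.1 CPM in ko CL, 11.3 to 12.9 CPM in ko saline, 11.6 to 17.2 CPM in wt CL and 12.5 to 15.4 CPM in wt saline, and Sox18, a factor of developing vessels, was 7.90 to 10.7 CPM in ko CL, 10.2 to 15.5 CPM in ko saline, 15.3 to 20.1 CPM in wt CL and 13.3 to 16.6 CPM in wt saline. In ko CL against wt CL, Sox17 differed by -0.68 ± 0.15 log2 (SE; edgeR adjusted p = 0.00211) and Sox18 by -0.94 ± 0.17 log2 (SE; edgeR adjusted p = 0.00037).

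Prox1 specifies lymphatic endothelium and was the least abundant member per kilobase of exon. Prox1 had 2.15, 2.20 and 2.54 CPM in ko CL, against 3.84, 5.16 and 3.54 CPM in ko saline, 1.62, 1.58 and 0.916 CPM in wt CL and 4.48, 2.40 and 1.85 CPM in wt saline. The CL libraries lay below the saline libraries in each genotype, and the ko CL libraries lay above the wt CL libraries. The difference was -0.86 ± 0.30 log2 (SE; edgeR adjusted p = 0.0273) in ko CL against ko saline, -1.09 ± 0.33 log2 (SE; edgeR adjusted p = 0.0205) in wt CL against wt saline and 0.75 ± 0.33 log2 (SE; edgeR adjusted p = 0.0723) in ko CL against wt CL. The wt call was lost without wt saline 1 or wt CL 3 (edgeR adjusted p = 0.1 and 0.0917), and the ko call without ko saline 2, ko CL 1 or ko CL 2. Genes of duct epithelium, 5 in the list, summed to 0.647 to 4.47 CPM in ko CL, 34 to 48.1 in ko saline, 0.0543 to 0.407 in wt CL and 1.20 to 17.2 in wt saline, where wt saline 1 held both the highest wt sum and the highest wt Prox1. Epcam, Foxj1, Ccdc153 and Cldn3 of that list were at 0 in at least 1 library, and the part of these genes in the result was not tested.

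Among effectors, Gpihbp1 and Nos3 had the widest gap between the genotypes' CL responses. Gpihbp1 carries lipoprotein lipase to the capillary lumen. Gpihbp1 measured 48.8, 63.9 and 60.1 CPM in ko CL, 116, 113 and 119 CPM in ko saline, 156, 183 and 171 CPM in wt CL and 121, 124 and 127 CPM in wt saline. The ko CL libraries lay below all others and the wt CL libraries above all others. Gpihbp1 was lower by -1.01 ± 0.09 log2 (SE; edgeR adjusted p = 1.2e-06) in ko CL against ko saline and higher by 0.46 ± 0.09 log2 (SE; edgeR adjusted p = 0.00161) in wt CL against wt saline. The CL responses differed by -1.47 ± 0.13 log2 (SE; edgeR adjusted p = 1.86e-06). Gpihbp1 made up 30.6 ± 1.6% of Pecam1 CPM in ko CL, 47.0 ± 4.2% in ko saline, 49.7 ± 1.2% in wt CL and 47.5 ± 1.9% in wt saline (SD, n = 3 each).

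Nos3 makes the nitric oxide that relaxes vessels. Nos3 stood at 21.4, 28.6 and 28.4 CPM in ko CL, with 40.8, 45.4 and 44.1 CPM in ko saline, 94.4, 93.3 and 87.7 CPM in wt CL and 65.5, 59.7 and 51.8 CPM in wt saline. The 4 groups did not overlap, and they stood in the order ko CL, ko saline, wt saline and wt CL. Nos3 was lower by -0.73 ± 0.11 log2 (SE; edgeR adjusted p = 0.000106) in ko CL against ko saline and higher by 0.64 ± 0.11 log2 (SE; edgeR adjusted p = 0.000519) in wt CL against wt saline. Under saline the genotypes differed by -0.44 ± 0.11 log2 (SE; edgeR adjusted p = 0.0175), a call lost without wt saline 1, wt saline 2 or ko saline 1 (edgeR adjusted p = 0.0604, 0.0547 and 0.0754). As a share of Pecam1 CPM it was 13.9 ± 1.0% in ko CL, 17.5 ± 0.90% in ko saline, 27.0 ± 3.4% in wt CL and 22.7 ± 2.9% in wt saline (SD, n = 3 each).

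Rasip1, a Ras-interacting protein needed for vessel lumens, and the secreted factor Egfl7 share exon bases with other genes on their strand, Rasip1 with Izumo1 and Egfl7 with Gm20532 and Mir126a, so their counts are uncertain. Rasip1 was at 17.3, 23.2 and 19.9 CPM in ko CL, 28.9, 32 and 32.1 CPM in ko saline, 41.5, 50.3 and 40.1 CPM in wt CL and 38.5, 39.1 and 35.4 CPM in wt saline. Egfl7 had 3.22, 2.97 and 3.10 CPM in ko CL, against 4.53, 4.28 and 4.15 CPM in ko saline, 6.43, 7.66 and 5.70 CPM in wt CL and 6.59, 6.04 and 5.48 CPM in wt saline. Both genes had ko CL libraries below all others. Rasip1 differed by -1.13 ± 0.11 log2 (SE; edgeR adjusted p = 1.96e-06) and Egfl7 by -1.09 ± 0.14 log2 (SE; edgeR adjusted p = 2.31e-05) in ko CL against wt CL.

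Vwf and Esm1 did not follow the other markers. Vwf, the clotting factor carrier of larger vessels and veins, was 92.8 to 108 CPM in ko CL, 109 to 128 CPM in ko saline, 69.3 to 94.9 CPM in wt CL and 122 to 135 CPM in wt saline. It fell with CL in wt, at -0.66 ± 0.11 log2 (SE; edgeR adjusted p = 0.000442), and not past the threshold in ko, at -0.17 ± 0.11 log2 (SE; edgeR adjusted p = 0.203). It was higher in ko CL than in wt CL, at 0.31 ± 0.11 log2 (SE; edgeR adjusted p = 0.0248), a call lost without wt CL 2, wt CL 3, ko CL 1 or ko CL 2 (edgeR adjusted p = 0.0544, 0.118, 0.0817 and 0.0715). Vwf stood at 55.1 ± 8.6% of Pecam1 CPM in ko CL, 46.3 ± 1.2% in ko saline, 24.5 ± 5.9% in wt CL and 50 ± 1% in wt saline (SD, n = 3 each). Esm1, a proteoglycan made by endothelial tip cells, was 1 to 1.47 CPM in ko CL, 2.68 to 5.56 CPM in ko saline, 0.489 to 1.40 CPM in wt CL and 3.5 to 4.92 CPM in wt saline. Its CL libraries lay below its saline libraries in each genotype, by -1.61 ± 0.34 log2 (SE; edgeR adjusted p = 0.00135) in ko and -1.97 ± 0.36 log2 (SE; edgeR adjusted p = 0.000947) in wt, and ko CL overlapped wt CL.

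**Figure D3:**
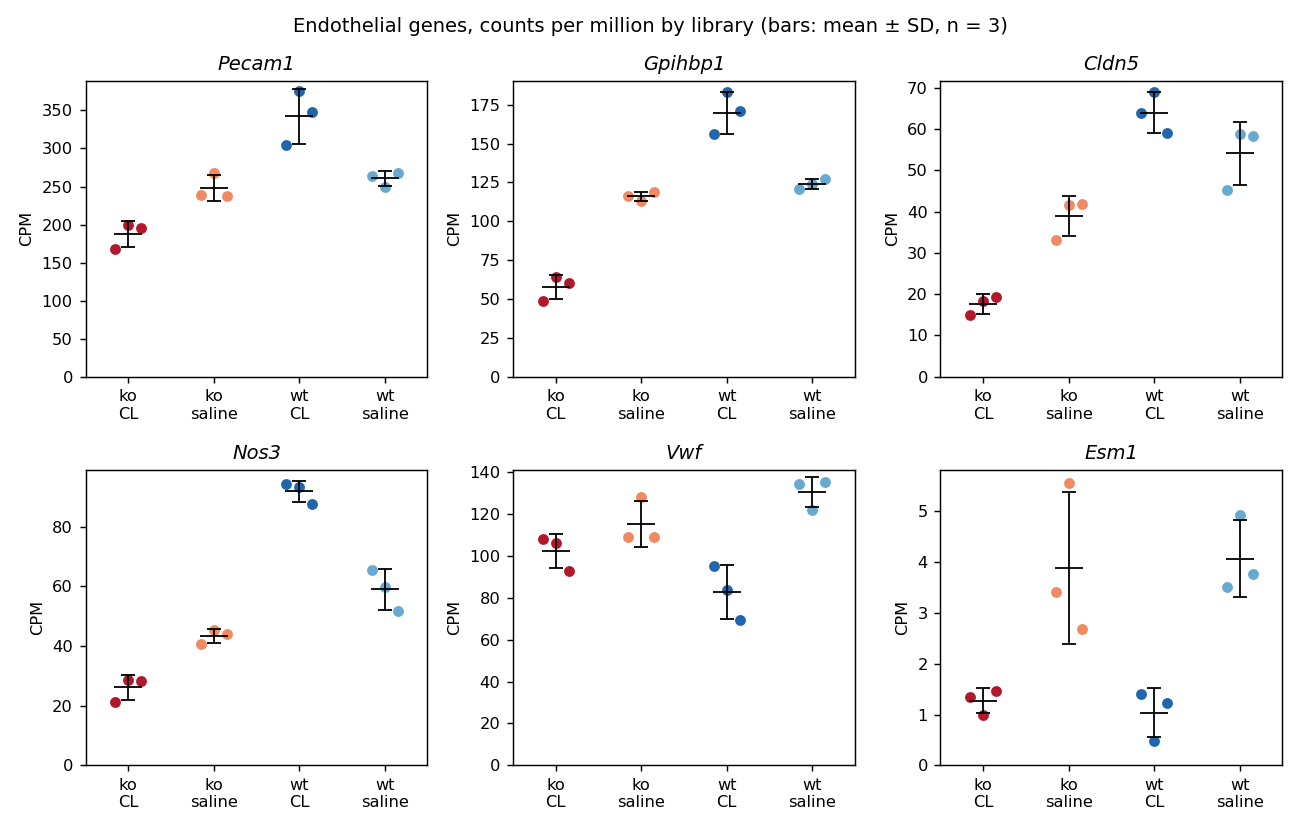
CPM of 6 endothelial genes in each library; points are libraries, bars the mean ± SD of 3. Pecam1, Gpihbp1, Cldn5 and Nos3 are lowest in ko CL, Vwf is lowest in wt CL, and Esm1 is low in both CL groups.

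Summed over the 29 endothelial genes, the level was 1547 ± 170 CPM in ko CL, 2207 ± 100 CPM in ko saline, 2912 ± 280 CPM in wt CL and 2455 ± 73 CPM in wt saline (SD, n = 3 each). No ko CL library reached the lowest library of another group, since ko CL spanned 1348 to 1665 CPM and ko saline 2117 to 2314 CPM. Of these 29 genes, 25 were lower and 1 higher in ko CL than in wt CL, and of the 5 ligands 3 were lower and 1 higher. Of all tested genes, 29.3% were lower and 27.6% higher in that comparison. Vegfa equalled 8.47 ± 1.1% of the endothelial sum in ko CL, 7.18 ± 0.57% in ko saline, 11.5 ± 1.9% in wt CL and 10.6 ± 0.39% in wt saline (SD, n = 3 each). The ko libraries, between 6.83% and 9.20%, lay below the wt libraries, between 10.1% and 13.7%. Vegfb equalled 1.31 ± 0.12% of the sum in ko CL, 2.26 ± 0.37% in ko saline, 1.5 ± 0.35% in wt CL and 2.67 ± 0.090% in wt saline. These sums and shares are given without a test, and with library sizes alone the mean sum was 1649 CPM in ko CL, 2498 in ko saline, 2381 in wt CL and 2495 in wt saline, which removed the excess of wt CL over wt saline.

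**Figure D4:**
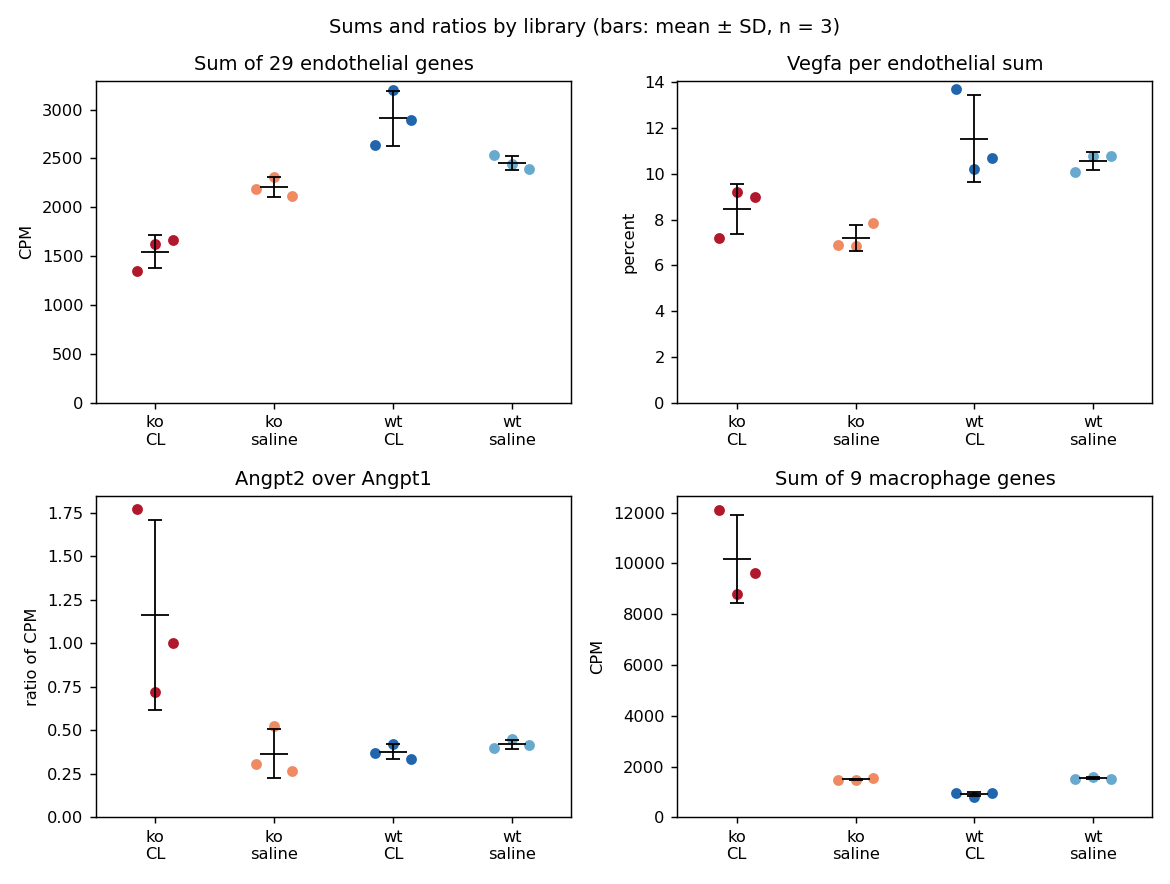
Values by library with mean ± SD of 3: the sum of the 29 endothelial genes in CPM, Vegfa as a percent of that sum, the ratio of Angpt2 to Angpt1 CPM, and the sum of 9 macrophage genes in CPM. The ko CL libraries are lowest in the first panel, at 1348 to 1665 CPM, and highest in the last, at 8788 to 12101 CPM.

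Per length, in wt saline the most abundant members were Vegfa at 60.5, Cdh5 at 60.4, Gpihbp1 at 48.5 and Pecam1 at 41.9 CPM per kilobase of exon. The least abundant were Flt4 at 2.58, Esm1 at 1.94, Egfl7 at 1.69 and Prox1 at 0.347 CPM per kilobase. The place of Egfl7 is uncertain, because it shares exon bases with other genes on its strand.

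A list of 40 other endothelial genes moved in both directions. Of these, 23 were lower and 11 higher in ko CL against wt CL, where 29.3% of all tested genes were lower and 27.6% higher. In ko CL against ko saline 25 were lower and 5 higher, against 27.5% and 27.2% of all tested genes. In wt CL against wt saline 11 were lower and 9 higher, against 17.1% and 19.6%. Shank3 and Nova2 were lower in ko CL than in wt CL, by -1.25 ± 0.08 and -1.48 ± 0.13 log2 (SE; edgeR adjusted p = 6.24e-08 and 5.71e-07). Lmo2, a factor of endothelial and blood cell development, was higher, by 1.93 ± 0.12 log2 (SE; edgeR adjusted p = 2.74e-08), at 143, 101 and 107 CPM in ko CL, 41.1, 44.8 and 40.6 CPM in ko saline, 28.7, 32.3 and 31.3 CPM in wt CL and 44.6, 38.7 and 41.6 CPM in wt saline. Cd93, a receptor of endothelial and myeloid cells, rose with CL in both genotypes, by 1.47 ± 0.10 log2 in ko and 0.87 ± 0.10 log2 in wt (SE; edgeR adjusted p = 1.07e-07 and 3.4e-05). The macrophage sums given above were also highest in ko CL, and their part was not tested. Thbd, the thrombin receptor thrombomodulin, fell with CL by -1.52 ± 0.12 log2 in ko and -2 ± 0.12 log2 in wt (SE; edgeR adjusted p = 3.38e-07 and 5.43e-07).

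Of 10 tested partners of the VEGF, angiopoietin and apelin pathways, 2 were higher and 4 lower in ko CL than in wt CL, against 27.6% and 29.3% of all tested genes. Nrp2, a VEGF co-receptor also found on macrophages, was higher by 0.59 ± 0.08 log2, and Vegfd, another ligand of Flt4, was lower by -0.73 ± 0.09 log2 (SE; edgeR adjusted p = 5.24e-05 and 9.04e-06). Vegfd was at 32.5, 39.6 and 40.3 CPM in ko CL, 32.3, 36 and 37.4 CPM in ko saline, 65.2, 58.7 and 62.7 CPM in wt CL and 57.1, 55.6 and 59.3 CPM in wt saline. Pgf, placenta growth factor, a ligand of Flt1, was lower in ko CL than in ko saline, by -1.56 ± 0.20 log2 (SE; edgeR adjusted p = 3.28e-05).

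Of 20 genes of the hypoxia response, which includes Vegfa's known inducers, 9 were higher and 2 lower in wt CL than in wt saline, against 19.6% and 17.1% of all tested genes. In ko CL against wt CL 4 of them were higher and 12 lower, against 27.6% and 29.3% of all tested genes. Pgk1, a glycolytic enzyme, rose by 1.19 ± 0.09 log2 in wt CL (SE; edgeR adjusted p = 1.34e-06). Epas1, the hypoxia-inducible factor HIF-2 alpha and itself strong in endothelium, was lower in ko CL than in wt CL by -1.01 ± 0.08 log2 (SE; edgeR adjusted p = 4.31e-07), at 201, 218 and 255 CPM in ko CL, 345, 360 and 350 CPM in ko saline, 476, 451 and 433 CPM in wt CL and 390, 392 and 369 CPM in wt saline. Of 12 further Notch pathway genes, 2 were higher and 8 lower in ko CL than in wt CL. Nrarp, a Notch target, was lower by -1.33 ± 0.13 log2, and Notch2 was higher by 0.81 ± 0.07 log2 (SE; edgeR adjusted p = 1.99e-06 and 5.75e-07).

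Genes around the vessel moved less uniformly. Of 10 pericyte and smooth muscle markers, 5 were lower in ko CL than in wt CL, led by Abcc9 at -0.87 ± 0.10, Kcnj8 at -1.15 ± 0.13 and Rgs5 at -1.34 ± 0.17 log2 (SE; edgeR adjusted p = 7.42e-06, 9.26e-06 and 2.19e-05). Their summed level was 584 to 748 CPM in ko CL, 897 to 1136 in ko saline, 959 to 1147 in wt CL and 948 to 1297 in wt saline. Of 17 vessel matrix genes and angiogenesis inhibitors, 3 were higher and 4 lower in that comparison, where 27.6% of all tested genes were higher and 29.3% lower. Of the 5 tested partners of Gpihbp1 in lipolysis, 1 was higher and 4 lower, with Lpl, lipoprotein lipase, at -0.65 ± 0.10 log2 (SE; edgeR adjusted p = 9.43e-05).

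Of 7 lymphatic markers, Prox1 and Flt4 among them, 6 were lower in ko CL than in ko saline and 5 lower in wt CL than in wt saline, where 27.5% and 17.1% of all tested genes were lower. Lyve1, which resident macrophages also make, led both, at -2.01 ± 0.15 and -1.16 ± 0.14 log2 (SE; edgeR adjusted p = 2.05e-07 and 5.5e-05). Of 6 mesothelial markers, 3 were higher in ko CL than in wt CL, where 27.6% of all tested genes were higher. Against saline, all 6 were lower with CL in wt, where 17.1% of all tested genes were lower. In ko 3 of them were lower with CL and 1 was higher, against 27.5% and 27.2% of all tested genes. Genes of red blood cells, 5 in the list and a reading of blood left in the vessels, summed to 186 to 311 CPM in ko CL, 341 to 437 in ko saline, 258 to 459 in wt CL and 241 to 631 in wt saline. The smallest edgeR adjusted p among them in the 2 CL comparisons was 0.0588, for Hbb-bs at -0.72 ± 0.30 log2 (SE) in ko CL against ko saline.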

How the data were processed

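Perigonadal white fat was sequenced in 12 libraries. The authors deposited whole-number counts per Ensembl gene for each library; STAR, HTSeq and GRCm38 are named without versions per the submitters' processing notes, and the labels' protocols give pooling of RNA from 2 mice a library. Lines for reads not assigned to a gene (12.5% to 17.2% of a library) were left out, and no sample column was left unused (0 columns). Symbols and coordinates came from GENCODE M21 (53274 of 53379 identifiers matched), promoter windows from RefSeq on GRCm38.p6. Windows on chromosome 18, where Ecscr lies, were left out. Windows were not held for Aplnr, Angpt1, Angpt2, Cdh5, Esam, Gpihbp1, Mmrn2, Nos3, Pecam1, Plvap, Ptprb, Sox17, Sox18 and Vwf.

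Groups were taken from the titles. Counts went into edgeR 4.0.16 (R 4.3.3, limma 3.58.1) for its quasi-likelihood test: filterByExpr with a minimum count of 10 (16554 genes), TMM scaling, 1 mean per group over all 12 libraries (8 residual degrees of freedom, biological coefficient of variation 11.5%), Benjamini-Hochberg adjustment over all genes and a threshold of 0.05. The SE was obtained by dividing the size of the log2 fold change by the root of its F statistic. CPM are after TMM. The test was checked on simulated counts with changes in ko CL only, in far fewer genes than were called here. That check did not cover shifts as wide as those of these data. Libraries of a group differed by more than sampling noise (chi-square per degree of freedom 7.44 to 60.3), so none was merged.

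Alternatives were library sizes alone, RLE and upper-quartile scaling, DESeq2 1.42.0, other low-count filters, a fit of only the groups compared, a threshold of 0.01, a replicate block and leaving out each library. The members and all gene lists were chosen with earlier results of these data known. Values in every library are given for members among the 20 smallest adjusted p, all ligands, the VEGF and Tie receptors, Prox1 and Gpihbp1, and ranges for the rest; other lists are given by counts, with examples from the 3 smallest adjusted p of a comparison. Lpl, Apln, Pgf and Vegfd were named for their place in the pathway after their values were seen, as were Cd93 and Lmo2 levels.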

Additional observations from a re-analysis of the deposited data

Results flagged for a closer look

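The CL response differed between ko and wt, by the test of that difference in edgeR, for 26 of the 34 genes, 24 of them lower and 2 higher, where 23.6% of all tested genes were lower and 21.8% higher. The values are the CL response in ko minus that in wt, in log2, at an adjusted p under 0.05. Among effectors the difference was -1.47 for Gpihbp1, -1.37 for Nos3, -0.84 for Rasip1 and -0.61 for Egfl7. Among junction and surface genes it was -1.39 for Cldn5, -1.02 for Cdh5, -0.84 for Ecscr, -0.80 for Pecam1, -0.67 for Esam, -0.67 for Robo4, -0.58 for Emcn and -0.52 for Mmrn2. The receptors gave -1.20 for Kdr, -0.74 for Flt1, -0.71 for Tie1, -0.80 for Aplnr and -0.68 for the phosphatase gene Ptprb. The Notch genes gave -0.94 for Dll4 and -0.81 for Notch4, and the transcription factors -0.97 for Erg and -0.73 for Sox18. The ligands gave -0.72 for Angpt1, -0.70 for Vegfb and -0.61 for Vegfa. Only Angpt2, at 1.10, and Vwf, at 0.49, had a positive difference among the members past the threshold. With library sizes alone the call was lost for Angpt1, Aplnr, Egfl7, Emcn, Mmrn2, Robo4, Sox18, Tie1 and Vegfa. On leaving out 1 library it was lost for Aplnr under 8 of the 12 omissions, with a difference down to -0.57 without wt CL 2, for Angpt1 under 5, for Sox18 under 4 and for Egfl7 under 2. The macrophage, adipocyte and fibroblast sums differed between the same libraries, and their part was not tested.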

How the results depend on the processing

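Of 170 gene and comparison pairs, 105 were called, and of these 105 kept direction and call with DESeq2 and with a filter of 1 CPM, 103 with RLE scaling, 102 without a filter, 100 with upper-quartile scaling, 78 with library sizes alone and 85 under every omission of 1 library. With only the compared groups fitted, 79 of the 79 calls outside the difference of the CL responses were kept, and that difference was not fitted. Library sizes alone gave 2 higher and 16 lower members in wt CL against wt saline, 1 lower in ko saline against wt saline, 4 higher in ko CL against wt CL and 15 lower in the difference of the CL responses, and mean endothelial sums of 2498 CPM in ko saline and 2381 in wt CL. They also turned Eng to -0.27 and Esam to -0.06 log2 in wt CL against wt saline, and Eng to 0.06 log2 in ko CL against wt CL. The counts of all tested genes with library sizes alone are given above with the member counts. Upper-quartile scaling gave 4 lower members in ko saline against wt saline, and fitting only those groups gave 12. Over all tested genes, 866 of 16554 and 1212 of 15972 were lower in these fits. Upper-quartile scaling put the median of all genes at -0.14 log2 in ko CL against ko saline, against -0.01 with TMM. In ko CL against ko saline 2 members were higher without a filter, with DESeq2 and with the replicate block. At 0.01, 3 members were lower in wt CL against wt saline, 1 in ko saline against wt saline, 1 was higher in ko CL against wt CL and 1 in the difference. The cause of these changes was not tested.

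Leaving out 1 library gave 3 to 6 lower members in wt CL against wt saline, 1 to 2 higher in ko CL against ko saline, 0 to 1 higher and 1 to 10 lower in ko saline against wt saline, and 1 to 3 higher in ko CL against wt CL. Same-numbered libraries of 2 groups correlated between -0.36 and 0.18 in their deviations from the group means, and 2 of 18 pairs were over 0.1. Differently numbered libraries were not compared, so whether the title numbers mark a pairing was not tested. With the replicate block 103 of 105 calls were kept, with 11 higher in wt CL against wt saline and 25 lower in the difference of the responses. Pools of 2 mice, 3 a group, limit the precision.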
